A study of Mus musculus with 18 samples.

Results

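The targets of 8 annotated mouse miRNAs, mmu-miR-706, mmu-miR-3470a, mmu-miR-3470b, mmu-miR-1195, mmu-miR-3473b, mmu-miR-7667-5p, mmu-miR-6380 and mmu-miR-5099, were followed in chimeric reads from cultured mouse keratinocytes (the prefix mmu is left out below). They are 8 of the 1797 miRNA names found. They were selected on their share of reads, which was higher in set 1 than in set 2 of 2 sets of libraries, so this excess is a description and not a result. Together they carried 73521 of 1153545 chimeric reads. The excess, taken as the set 1 control share minus the set 2 uninduced control share, ranged over the members from 6.05 percentage points for miR-3470b to 1.08 points for miR-5099. At the edge of the choice, miR-6380 (1.13 points) and miR-5099 were inside, whereas miR-3473d (1.11 points) and miR-690 (0.563 points) were outside. miR-709, with the highest excess of all (11.3 points), was kept apart and serves here as a neighbour for comparison.

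CLEAR-CLIP recovers Argonaute 2 with its RNA after ultraviolet crosslinking, and ligates each miRNA to the RNA it is bound to, so that 1 read carries a miRNA followed by a piece of its target. In a miRNA, bases 2 to 8 (the seed) ordinarily pair with a complementary stretch of the target, and most such targets lie in spliced messenger RNA. Several of these 8 names belong to miRNA annotations whose sequences are known to resemble the B1 repeat (miR-706, miR-3470a, miR-3470b and miR-1195) or the B2 repeat (miR-3473b, miR-7667-5p and miR-6380), which are short interspersed elements present in very many copies in mouse introns and between genes. No annotation of repeats was used here.

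All cells were mouse keratinocytes grown in low-calcium medium and crosslinked with 300 mJ/cm2 of ultraviolet light at 254 nm. Set 1 held 3 libraries of miR-200 double knockout (DKO) cells and 6 libraries of control cells carrying K14-Cre alone, in which the keratin 14 promoter drives the recombinase. Set 2 held 3 DKO libraries, 3 libraries of cells with inducible miR-200 after 24 hours in 3 ug/ml doxycycline (induced), and 3 libraries of such cells without it (uninduced control). The controls of the 2 sets are therefore different cells, and each set was sequenced in its own run, so that set, control cells and run cannot be told apart. The 18 libraries were pooled into 5 files, 1 per group, with no library names, so each group is 1 pooled sample. With 1 sample a group no test between groups was possible, and the 95% intervals printed beside values cover counting error only. Pools held 48662 (set 1 DKO), 161692 (set 1 control), 210003 (set 2 DKO), 419117 (induced) and 314071 reads (uninduced control). A floor of 3 reads corresponds to 0.000716 to 0.00616% of a pool. All 10 of 10 keratinocyte marker genes, such as Krt5 and Krt14, had chimeric targets in each pool, against 0 or 1 of 5 fibroblast, 0 of 3 immune, 0 or 1 of 2 endothelial and 0 or 1 of 3 melanocyte markers.

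The mature sequences are shown from 5′ to 3′ with the seed in capitals, because their likeness to one another and to the genome beside their targets recurs below. RefSeq (build GRCm38.p6) lists mature sequences for 6 of the 8 names. They lie at chr6:120034290-120034311 (minus strand, miR-706), chr16:44013885-44013905 (plus, miR-3470b), chr17:70860558-70860580 (minus, miR-1195), chr10:41670774-41670793 (plus, miR-3473b), chr17:29595538-29595559 (plus, miR-7667-5p) and chr3:137783536-137783559 (minus, miR-6380). For miR-5099 the hairpin at chr12:36816205-36816278 (plus) is shown, and the capitals mark its last 26 bases, to which a later result refers. miR-3470a is named only.
miR-706: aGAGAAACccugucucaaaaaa
miR-3470b: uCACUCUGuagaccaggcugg
miR-1195: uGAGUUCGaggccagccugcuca
miR-3473b: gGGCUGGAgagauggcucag
miR-7667-5p: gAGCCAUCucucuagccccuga
miR-6380: uGUAAGUGcuuuuaacugcugagc
miR-5099 hairpin: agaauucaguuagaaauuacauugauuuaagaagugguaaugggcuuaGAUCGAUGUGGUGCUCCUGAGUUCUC

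The 6 seeds all differ. miR-3473b and miR-7667-5p hold a run of 12 bases that are the reverse complement of one another, and miR-1195 and miR-3470b one of 8 bases. Among other names with a mature sequence and at least 100 reads in a pool, miR-3473e alone shared at least 12 bases in a row with a member (18 bases with miR-3473b). It held 0.0534% of set 1 DKO and 0.119% of set 1 control reads, against 0.00828% of set 2 uninduced control reads.

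Runs of these miRNAs occurred near more gene starts than those of most miRNAs. Of 32815 windows of 300 bases (250 before to 50 after a RefSeq gene's start), 77 held 15 or more bases in a row of miR-3473b on either strand (0.235%), the highest count of 1679 mature names. The counts were 56 windows for miR-706 (rank 4), 49 for miR-3470b (rank 5), 22 for miR-1195 (rank 11), 13 for miR-7667-5p (rank 16) and 5 for miR-6380 (rank 38). In comparison, 1224 of the 1679 names (72.9%) had no such window, among them miR-21a-5p and miR-205-5p. A pair of windows shows how members lie on 1 stretch of DNA. The stretches are chr15:81663639-81663706, before the start of L3mbtl2, and chr6:29688746-29688782, before that of Gm38780, both on the plus strand, with every run of 12 or more bases of a member in capitals.
L3mbtl2 window: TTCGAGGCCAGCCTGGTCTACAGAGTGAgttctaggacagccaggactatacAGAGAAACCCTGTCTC
Gm38780 window: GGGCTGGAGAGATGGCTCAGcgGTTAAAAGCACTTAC

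In the L3mbtl2 window, bases 1 to 15 match miR-1195 on the plus strand, bases 8 to 28 match all of miR-3470b on the minus strand, and bases 53 to 68 match miR-706 on the plus strand. In the Gm38780 window, bases 1 to 20 match all of miR-3473b on the plus strand, bases 7 to 18 match miR-7667-5p on the minus strand and bases 23 to 37 match miR-6380 on the minus strand. Of the 32815 windows, 9 held such runs of miR-706, miR-3470b and miR-1195 together, and 9 held such runs of miR-3473b, miR-7667-5p and miR-6380 together.

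The members made up a large part of set 1 and a small part of set 2. Together they held 15.2% of reads in the set 1 DKO pool (14.9 to 15.5) and 25.2% in the set 1 control pool (25.0 to 25.4), against 3.32% in the set 2 DKO pool (3.25 to 3.40), 2.62% in the induced pool (2.57 to 2.67) and 2.38% in the uninduced control pool (2.33 to 2.43). miR-3470b was the most frequent member in the set 1 control pool, at 6.46% (rank 2 of all miRNAs there), and held 0.405% in the uninduced control pool (rank 47). miR-706 held 4.46 and 4.80% in the set 1 DKO and control pools, and 0.729, 0.581 and 0.470% in the set 2 DKO, induced and uninduced control pools. The lowest ratio of set 1 over set 2 control was that of miR-5099 (3.48, 3.26 to 3.72, and 7.55 without reads shared between pools of a run), and the highest that of miR-3470b (15.9, 15.0 to 16.9). Removing shared reads took 9.75% of the miR-5099 reads in the set 1 control pool and 60.3% in the uninduced control pool. The value of 7.55 is therefore no cleaner estimate than 3.48. All 8 members were at least 1.5-fold higher in the set 1 control pool, as the choice of members required. The same was true of 64.1% of the 649 miRNAs that reached 20 reads over the 2 control pools.

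In the pools taken as set 1 DKO, set 1 control, set 2 DKO, induced and uninduced control, miR-3470a held 2.01, 3.78, 0.286, 0.277 and 0.243% of reads, and miR-1195 held 1.13, 2.00, 0.181, 0.136 and 0.133%. In the same pools miR-3473b held 1.60, 2.98, 0.40, 0.374 and 0.344%, miR-7667-5p held 1.14, 2.38, 0.232, 0.245 and 0.234%, and miR-6380 held 0.660, 1.25, 0.111, 0.131 and 0.116%. For each of these 5 members both set 1 values lay above all set 2 values. miR-5099 differed, with 0.678, 1.52, 0.864, 0.412 and 0.435%, since its set 2 DKO value exceeded its set 1 DKO value.

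**Figure D1:**
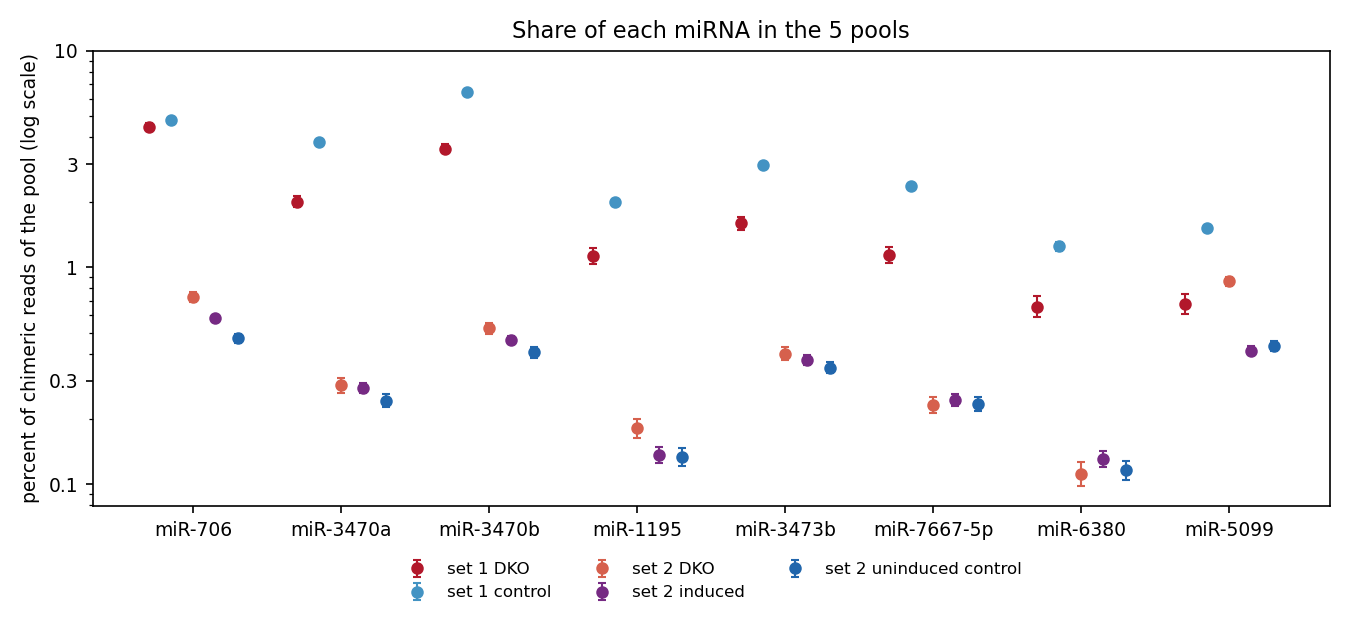
Share of chimeric reads (percent, log scale) held by each of the 8 miRNAs in the 5 pools, with 95% counting intervals as bars. The 7 miRNAs other than miR-5099 lie higher in both set 1 pools than in any set 2 pool, whereas miR-5099 held 0.678% in the set 1 DKO pool and 0.864% in the set 2 DKO pool.

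Within set 1, most members held a smaller share in DKO than in control cells. The control pool is the one whose high shares chose the members, so the choice itself favours low ratios, and they are given as a description. miR-7667-5p held 1.14% of reads in the DKO pool and 2.38% in the control pool, a ratio of 0.479 (0.438 to 0.524). miR-3470b held 3.53% in the DKO pool and 6.46% in the control pool (ratio 0.547, 0.520 to 0.576). miR-5099 had the lowest ratio (0.447, 0.398 to 0.502), with 0.678% in the DKO pool and 1.52% in the control pool. The ratios of miR-3470a, miR-1195, miR-3473b and miR-6380 lay between 0.528 and 0.564. miR-706 stood apart, with 4.46% in the DKO pool and 4.80% in the control pool (ratio 0.929, 0.885 to 0.974), and its ratio was 1.00 (0.956 to 1.06) without reads whose position and barcode also occurred in the other pool of the run. Thus 7 of 8 members were at least 1.5-fold lower in set 1 DKO cells, and 47% of all 562 miRNAs that reached 20 reads were so. At a fold of 2 only miR-7667-5p and miR-5099 were, 2 of 8 members against 30.6% of all miRNAs.

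In set 2 the uninduced control pool, in which the members' low shares entered their choice, is again the denominator, and the choice favours high ratios. miR-5099 held 0.864% of reads in the DKO pool and 0.435% in the uninduced control pool (ratio 1.98, 1.85 to 2.13). miR-706 held 0.729% in the DKO pool and 0.470% in the uninduced control pool (ratio 1.55, 1.44 to 1.67). These 2 of 8 members were at least 1.5-fold higher in DKO cells, against 23.5% of the 371 miRNAs with enough reads. Counted once per position, the ratio was 1.46 for miR-5099 and 1.49 for miR-706, so that 0 of 8 members passed 1.5-fold. miR-3470a, miR-3470b, miR-1195 and miR-3473b had ratios of 1.16 to 1.36 with intervals above 1, whereas the intervals of miR-7667-5p (0.990, 0.881 to 1.11) and miR-6380 (0.964, 0.814 to 1.14) included 1. The DKO and induced pools share the uninduced control pool, and are given side by side. In the induced pool 0 of 8 members were at least 1.5-fold higher than in the uninduced control pool, against 8.79% of 421 miRNAs, and their ratios lay between 0.947 (miR-5099, 0.882 to 1.02) and 1.24 (miR-706, 1.16 to 1.32).

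**Figure D2:**
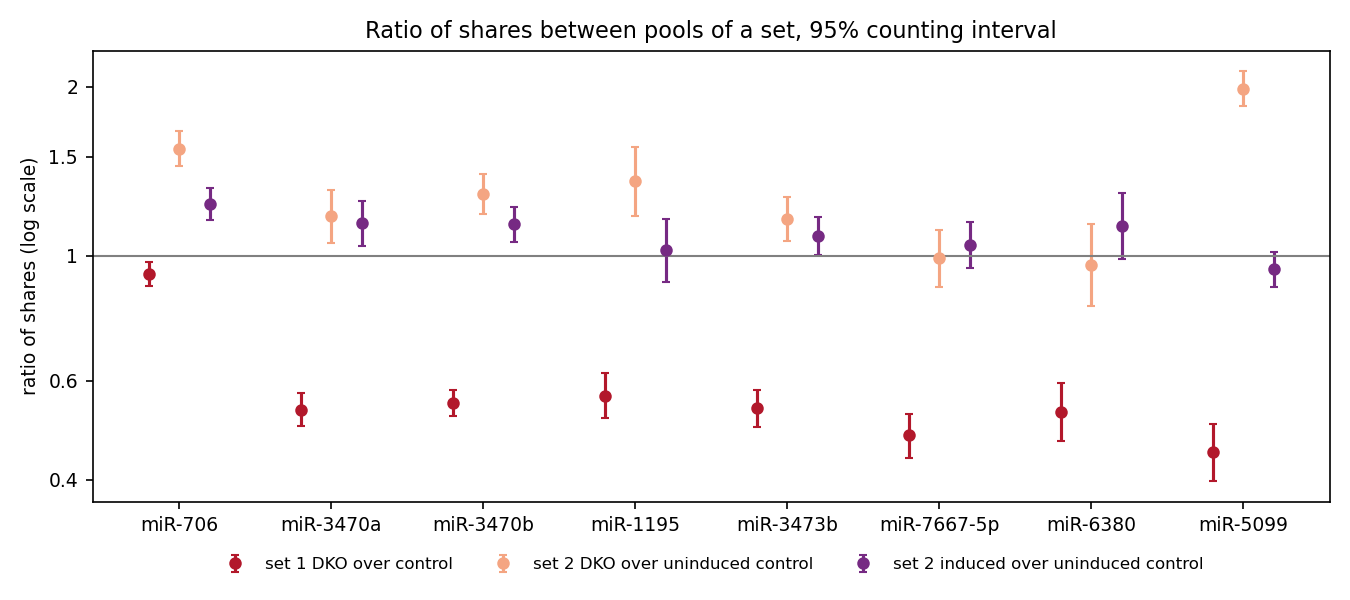
Ratio of shares (log scale, 1 marked by a line) for each miRNA between DKO and control pools of set 1, DKO and uninduced control pools of set 2, and induced and uninduced control pools of set 2, with 95% counting intervals. Set 1 DKO ratios lie below 1 for all 8 miRNAs, nearest to 1 for miR-706 (0.929), and set 2 DKO ratios reach 1.98 for miR-5099.

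The reads of 7 members were scattered over many target positions. In set 1 control, the 7 members other than miR-5099 had 38237 reads on 28886 positions (start, end and strand), or 1.32 reads per position, and 84.5% of those positions held 1 read. In the uninduced control pool they had 6110 reads on 5251 positions, or 1.16 reads per position. The median of the other miRNAs with at least 500 reads was 1.14 reads per position in the set 1 control pool (42 miRNAs) and 1.09 in the uninduced control pool (88 miRNAs). Single members in the set 1 control pool ranged from 1.17 (miR-706) to 1.45 reads per position (miR-3470b), far from the 6.03 of miR-709.

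Target parts that began at the same base often ended at different bases in the set 1 control pool. There the 7 members together had 1.47 positions per 5′ end, against a median of 1.07 among the other miRNAs and 1.68 for miR-709. In the set 1 DKO pool, with fewer reads, they had 1.17 positions per 5′ end and the other miRNAs a median of 1.17. In the uninduced control pool the value was 1.16, against a median of 1.08. The most read position of any of the 7 over all pools was chr8:123027436-123027458 (minus strand) in Ankrd11, which encodes a chromatin regulator, with 123 reads of miR-3470b. It had 2 reads in the set 1 DKO pool, 31 in the set 1 control pool, 54 in the set 2 DKO pool, 22 in the induced pool and 14 in the uninduced control pool. Even this position held no more than 53 of the 256 barcodes that 4 bases allow, within 1 pool.

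miR-5099 had nearly all its reads at 1 target place. Of its 7690 reads in all pools, 7670 (99.7%) lay on the plus strand within chr17:39843014-39843134. It had 330, 2451, 1814, 1728 and 1367 reads in the set 1 DKO, set 1 control, set 2 DKO, induced and uninduced control pools, on 45, 100, 76, 80 and 74 positions. Reads per position were 7.33, 24.5, 23.9, 21.6 and 18.5 in the same order, each above miR-709 in the same pool. Between 93.0% (set 1 control) and 97.6% (uninduced control) of the reads at this place began at base 39843015, and from that base they ended at 33 to 45 different bases per pool.

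**Figure D3:**
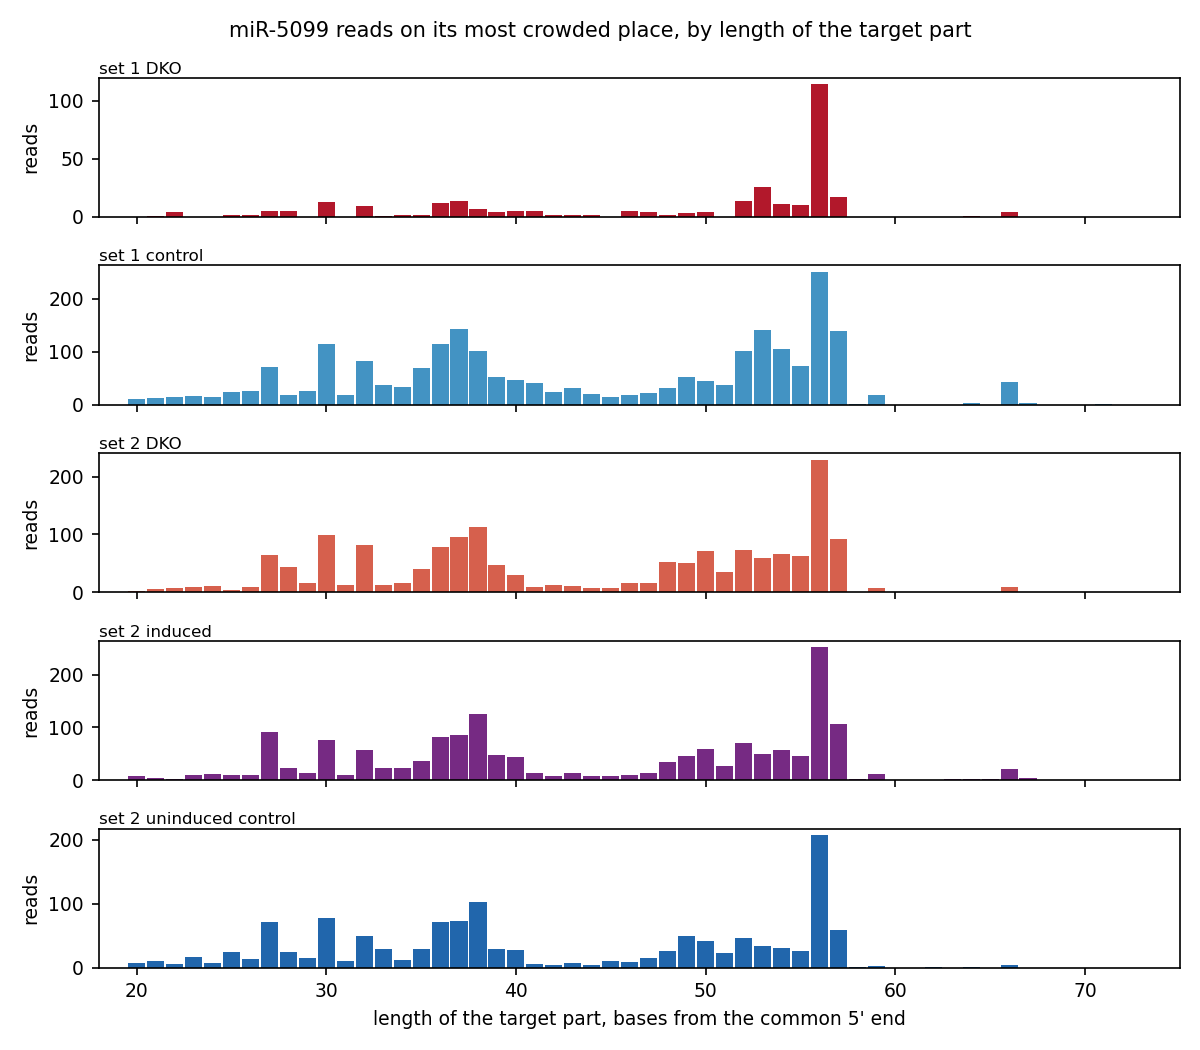
Number of miR-5099 reads by length of the target part (bases from the common 5′ end) in each of the 5 pools. The commonest length, 56 bases, held 114 reads in the set 1 DKO pool, 251 in the set 1 control pool, 229 in the set 2 DKO pool, 252 in the induced pool and 207 in the uninduced control pool.

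The count of miR-5099 at its commonest position was near a ceiling in the pools other than set 1 DKO. No 2 reads of a pool share position, strand, miRNA and barcode, so a position cannot hold more than 256 full barcodes. The position chr17:39843015-39843070 held 110 different full barcodes in the set 1 DKO pool (43.0% of 256) and 227 in the set 1 control pool (88.7%). It held 217 in the set 2 DKO pool (84.8%), 231 in the induced pool (90.2%) and 196 in the uninduced control pool (76.6%). Counted once per position, its set 1 DKO over control ratio was 1.40 (0.960 to 2.01) in place of 0.447. Of its reads, 72.4% in the set 1 DKO pool and 9.75% in the set 1 control pool had the same position and barcode as a read of the other pool, and without those the ratio was 0.157 (0.126 to 0.193). With 227 of 256 barcodes in use in the set 1 control pool, reads at this position can share a barcode by coincidence. The removal took 239 reads from each pool, a far larger part of the smaller one, so 0.157 is no cleaner estimate than 0.447.

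None of the 49980 RefSeq genes placed here covers the miR-5099 place. Gene records without a listed position were left out, so a gene lying there could have been missed. The next gene downstream, Rn18s-rs5, a pseudogene record of 18S ribosomal RNA, begins at 39846354, 3220 bases after the end of the place. Other miRNA names had 21 reads there in the set 1 DKO pool and 103 in the set 1 control pool, against 442 in the set 2 DKO pool, 2099 in the induced pool and 1543 in the uninduced control pool. Those reads came mostly from miR-29a, miR-29b and miR-29c, with 71.4% of them in the set 1 DKO pool and 87.4% in the set 1 control pool, and 90.3 to 95.5% in the set 2 pools. The place took 5.23% of all reads of these miR-29 members in the set 1 DKO pool and 8.84% in the set 1 control pool, and 13.1 to 14.7% in the set 2 pools.

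Targets of some members lay more often outside genes. Over all pools 16.1% of the distinct chimeras of miR-706 (15.5 to 16.8) and 15.3% of those of miR-3473b (14.4 to 16.1) lay outside any RefSeq gene, against 4.90% (4.85 to 4.94) for all other miRNAs together, miR-709 included. A distinct chimera is a combination of position, strand and miRNA within a pool, counted once. The share was 8.28% for miR-3470a, 8.13% for miR-1195 and 7.80% for miR-3470b. It was 5.33% for miR-7667-5p (4.75 to 5.95) and 5.20% for miR-6380 (4.41 to 6.08) over all pools, where the other miRNAs come mostly from set 2. For miR-5099, with its 1 place, it was 96.5%, and for miR-709 it was 27.2%.

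miR-706 and miR-3473b lay above all other miRNAs in each pool. miR-706 had 17.1% outside genes in the set 1 DKO pool, 14.1% in the set 1 control pool, 20.1% in the set 2 DKO pool, 17.9% in the induced pool and 17.8% in the uninduced control pool. miR-3473b had 17.6, 13.9, 14.4, 17.0 and 17.8% in those pools, and miR-7667-5p had 6.04, 5.13, 5.17, 4.83 and 6.50%. All other miRNAs had 7.18 and 6.15% in the set 1 DKO and control pools, and 4.65, 4.49 and 4.88% in the set 2 DKO, induced and uninduced control pools. The excess of miR-706 and miR-3473b was thus present in both sets. In the set 1 control pool, however, miR-7667-5p (4.37 to 5.97) lay below all other miRNAs (5.99 to 6.31), and miR-6380, with 5.17% (4.13 to 6.38), was not separated from them.

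Within genes the members kept mostly, but not always, to the gene's own strand. Among targets in 1 protein-coding gene of known strand, 98.4% of all other miRNAs' chimeras were on the sense strand (579536 of 589120). miR-706 had 90.6% (89.9 to 91.2; 7886 of 8706), miR-3473b 92.7% (91.9 to 93.5) and miR-709 82.5%. miR-3470a, miR-3470b and miR-1195 had 96.1 to 96.7%, whereas miR-7667-5p had 98.6% and miR-6380 98.4%. All other miRNAs varied by pool, with 96.9% in the set 1 DKO pool and 97.6% in the set 1 control pool, and 98.5, 98.6 and 98.4% in the set 2 DKO, induced and uninduced control pools. miR-706 (88.7 to 92.0%) and miR-3473b (90.6 to 93.8%) lay below them in each pool. miR-3470b was not separated from them in the set 1 DKO pool, with 96.6% (95.3 to 97.6), nor in the set 2 DKO pool, with 98.2% (96.9 to 99.1). Nor was miR-3470a in the set 1 DKO pool, with 95.6% (93.6 to 97.1). The same held for miR-1195 in the uninduced control pool, with 98.1% (95.7 to 99.4). miR-7667-5p, with 98.7% (98.1 to 99.1), lay above all other miRNAs in the set 1 control pool. Mitochondrial RNA was nearly missing from the members' targets. Over all pools 0.00942% of their chimeras lay there, against 3.04% of all other miRNAs' chimeras. miR-709 shared this trait, with 0% of its 6576 chimeras there, and miR-205-5p had 1.30%.

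**Figure D4:**
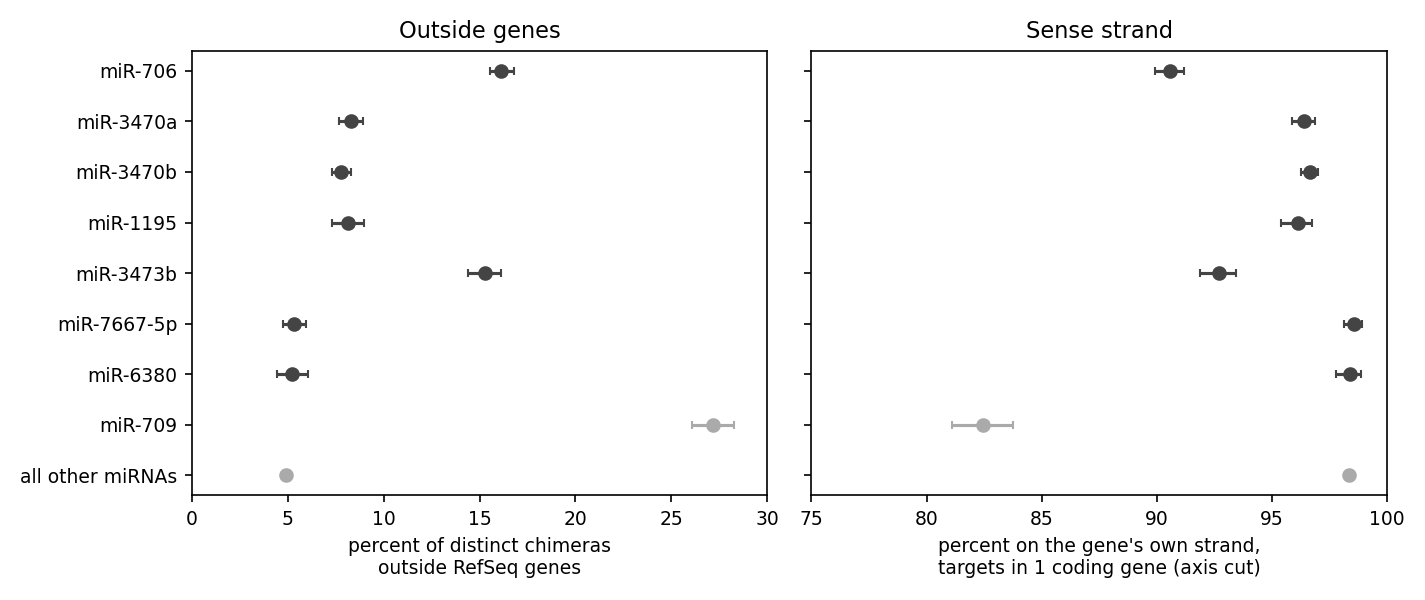
Percent of distinct chimeras outside RefSeq genes (left) and, among targets in 1 coding gene of known strand, percent on the gene's own strand (right, axis from 75 to 100%), over all pools with 95% counting intervals. miR-706 (16.1% outside, 90.6% sense) and miR-3473b (15.3%, 92.7%) lie between miR-709 and the 5 other members drawn, miR-5099 being left out. The points join pools in which all other miRNAs ranged from 4.49 to 7.18% outside genes.

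No gene dominated the members' targets. Of their 53070 distinct chimeras, 5949 lay outside any gene. The members hit 7247 genes, of which 2487 were hit once. The 10 leading genes held 2.22% of the 53070 chimeras, against 3.78% for all other miRNAs. The leading gene, Rere, which encodes a nuclear receptor corepressor, held 0.394% of members' chimeras (209) and 0.0847% of other miRNAs' chimeras. Genes were ranked by their share of members' chimeras, which favours such a difference. Its share of members' chimeras was 0.392 and 0.375% in the set 1 DKO and control pools, and 0.195, 0.516 and 0.488% in the set 2 DKO, induced and uninduced control pools, from 24, 109, 9, 41 and 26 chimeras. These counts are small, and the intervals of neighbouring values overlap. All 209 lay on the sense strand, and 7 members contributed, led by miR-3470b (84) and miR-706 (53).

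Other leading genes had many roles. Ankrd11 held 145 member chimeras, Fmnl2, a formin that builds actin filaments, 126, and Col18a1, a collagen of basement membranes, 109. Cmip and Nr6a1, an orphan nuclear receptor, had 103 each. Trio, a guanine nucleotide exchange factor, had 98, Mrtfa, a coactivator of serum response factor, 98, Nxn, nucleoredoxin, 94, and Myo1e, an unconventional myosin, 89. G3bp1, a stress granule protein, held 84, Bcar3, a signalling adaptor, 81, Jmjd1c, a histone demethylase family member, 80, Gnb1, a G protein beta subunit, 78, and Niban2 77. Pard3, a cell polarity protein, had 75, Grip1 74, Klc1, a kinesin light chain, 70, Malat1 65 and Neat1 64. The spans of the 20 genes ran from 6.98 kb (Malat1) to 634 kb (Grip1), and 18 of the 20 were protein-coding.

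The 20 genes differed in how they compared with other miRNAs. They were chosen for a high share of member chimeras, which by itself favours a higher share there than among other miRNAs. Member chimeras also come mostly from set 1, and those of other miRNAs mostly from set 2. G3bp1 held 0.158% of member chimeras and 0.0212% of other miRNAs' chimeras, and Klc1 0.132 and 0.0286%. By contrast, Neat1, a nuclear long noncoding RNA, held 0.121% of member chimeras and 1.37% of other miRNAs' chimeras, and Malat1, another, held 0.122 and 0.411%. In Malat1, 64 of the 65 member chimeras came from miR-706, and these 64 began at 4 different bases. In Neat1, 40 of 64 came from miR-706, whose most read position (58 reads) lay there on the minus strand of chromosome 19, at chr19:5834239-5834278. That position had 1 read in the set 1 DKO pool and 11 in the set 1 control pool, against 6, 18 and 22 in the set 2 DKO, induced and uninduced control pools.

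The leading genes of a member each held less than 0.9% of its chimeras, and Rere was among those of miR-706, miR-3470b and miR-7667-5p. The 3 leading genes were Malat1 (64 chimeras), Rere (53) and Bcar3 (41) for miR-706, and Rere (84), Ankrd11 (55) and Efna5, an ephrin ligand (46), for miR-3470b. They were G3bp1 (36), Arhgap10 (29) and Rras2 (29) for miR-3470a, and Aff1 (22) and Cdc42ep4 (21) were among those of miR-1195. For miR-3473b they were Col18a1 (40), Kank1 (33) and Palb2 (29), and for miR-7667-5p Rere (32), Zfhx3 (31) and Klhl26 (27). miR-6380 led with Sh3rf1 (25), Nfe2l2, the regulator of the antioxidant response (22), and Cmip (20). Chimeras in a gene often shared a 5′ end, so these are not counts of separate sites. The 25 of miR-6380 in Sh3rf1 began at 2 different bases and the 22 in Nfe2l2 at 3, whereas the 53 of miR-706 in Rere began at 29. miR-5099 had 1 chimera in each of 5 genes, among them 1700029J07Rik, Grik4 and Slc2a1, the glucose transporter. The most read position of miR-6380, with 84 reads, lay in Nfe2l2 at chr2:75688224-75688248 (minus strand), with 13 reads in the set 1 DKO pool, 31 in the set 1 control pool, 5 in the set 2 DKO pool, 21 in the induced pool and 14 in the uninduced control pool.

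Members rarely shared a target place. When their overlapping targets on 1 strand were joined over all pools, 26996 regions were formed, of which 26636 (98.7%) held 1 member, 357 held 2 and 3 held 3. In single pools, 1.04% of the distinct chimeras of the 7 members other than miR-5099 overlapped another member in the set 1 DKO pool (0.797 to 1.32) and 2.63% in the set 1 control pool (2.45 to 2.82). The share was 0.441% in the set 2 DKO pool (0.270 to 0.681), 1.09% in the induced pool (0.875 to 1.35) and 0.723% in the uninduced control pool (0.512 to 0.992). The pools differ in the number of positions that could overlap. Of the 28 pairs of members, 18 had no overlap in the set 1 control pool and 22 had none in the uninduced control pool.

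miR-3470a with miR-3470b, and miR-7667-5p with miR-6380, overlapped most. In the set 1 control pool, 205 chimeras of miR-3470a (4.70%) overlapped miR-3470b, of which 271 (3.76%) overlapped miR-3470a, and 94 of miR-7667-5p (3.07%) overlapped miR-6380, of which 82 (5.17%) overlapped miR-7667-5p. In the uninduced control pool the counts were 8 of miR-3470a (1.26%) and 4 of miR-3470b (0.373%), and 8 of miR-7667-5p (1.18%) and 8 of miR-6380 (2.52%). The members also rarely met abundant miRNAs. In the set 1 control pool 0.117 to 0.639% of the 7 members' chimeras overlapped a target of 9 abundant miRNAs, namely let-7b-5p, miR-21a-5p, miR-23a-3p, miR-24-3p, miR-27a-3p, miR-31-5p, miR-200b-3p, miR-200c-3p and miR-205-5p. Each of those 9 overlapped the other eight in 10.3 to 23.1% of its chimeras there. In the uninduced control pool the ranges were 1.8 to 3.6% for the 7 members and 16.1 to 40.2% for the 9 miRNAs. The 9 had 88772 positions in that pool and 25539 in the set 1 control pool.

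The 3 regions with 3 members were small. A region of 22 bases in Zfp827, at chr8:79134631-79134652 (plus strand), held 10 chimeras of miR-1195, 4 of miR-3470b and 3 of miR-3470a from all 5 pools, and 0 of any other miRNA. A region outside genes, at chr16:35876797-35876823 (plus), held 5 chimeras of those 3 members beside 93 of other miRNAs. A region in Tra2a, at chr6:49254731-49254817 (minus), held 1 chimera each of miR-706, miR-3470a and miR-3470b. The richest regions with 2 members, in Spred2 at chr11:19956562-19956634 (plus) and in Ankrd11 at chr8:123027406-123027458 (minus), each held 25 chimeras of miR-3470b and 1 of miR-3470a.

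Where targets of different members lay close together, their 5′ ends often kept 1 distance. Over all pools, 260 pairs of a miR-3470a and a miR-3470b 5′ end lay within 150 bases on the same strand, and 200 of them coincided. Between miR-7667-5p and miR-6380 the commonest distance was 15 bases, with the miR-6380 end on the 5′ side, and 101 of 108 pairs (93.5%) lay within 5 bases of it. The miR-1195 end lay 59 bases to the 5′ side of the miR-706 end in 55 of 227 pairs, and 173 pairs (76.2%) lay within 5 bases of that distance. On opposite strands, the miR-3470a and miR-3470b ends lay most often 68 bases to the 5′ side of the miR-706 end, read along the strand of miR-706, and within 5 bases of that distance in 37 of 49 pairs (75.5%) and in 25 of 45 pairs (55.6%). The other combinations with enough pairs were more spread: on the same strand 10 of 28 pairs of miR-3470b and miR-1195, 4 of 21 of miR-706 and miR-3473b and 3 of 30 of miR-706 and miR-3470b lay within 5 bases of their commonest distance.

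**Figure D5:**
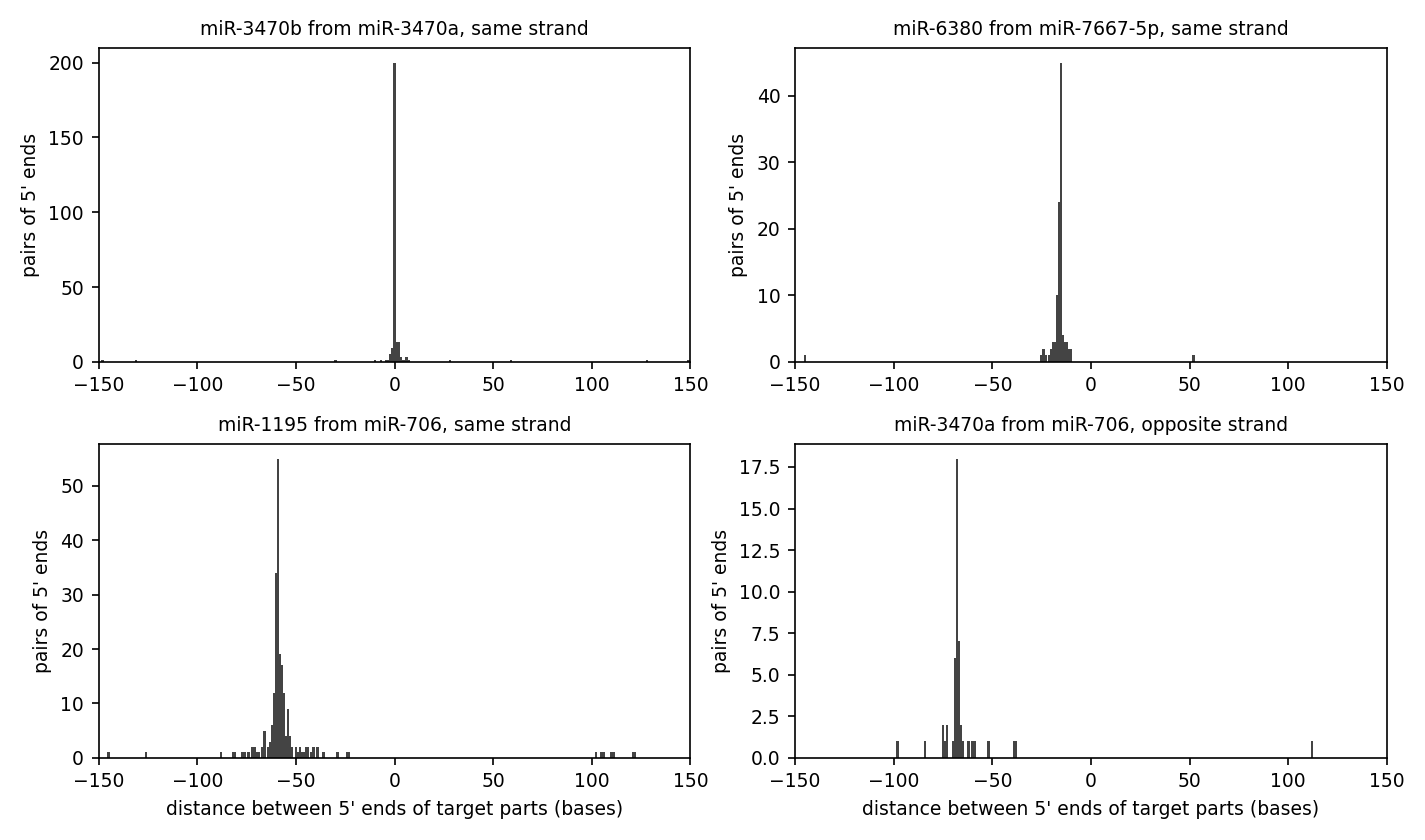
Number of pairs of target 5′ ends by distance in bases, over all pools, negative where the first named miRNA of a panel lies on the 5′ side of the second. The peaks stand at 0 for miR-3470b from miR-3470a, at -15 for miR-6380 from miR-7667-5p, at -59 for miR-1195 from miR-706, and at -68 on opposite strands for miR-3470a from miR-706.

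In 3 pairs, distances close to these separated the miRNA sequences themselves in the genome. In the windows around gene starts, the 3′ end of a miR-1195 match lay most often 55 bases to the 5′ side of that of a miR-706 match on the same strand (16 of 21 pairs within 5 bases). For miR-7667-5p and miR-6380 the commonest distance was 18 bases (9 of 9 pairs), and for miR-706 and miR-3470b on opposite strands 67 bases (20 of 22 pairs). The target ends of the chimeras were spaced at 59, 15 and 68 bases in the same pairs. Matches on opposite strands kept a distance in 3 further pairs, 24 bases for miR-3473b and miR-7667-5p (84 of 84), 6 bases for miR-3473b and miR-6380 (15 of 15) and 12 bases for miR-3470b and miR-1195 (27 of 29). These had fewer than 20 pairs of target ends on opposite strands, so no distance between target ends stands beside them.

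Where the genome beside a target could be read, most target parts of the members directly followed a copy of part of the miRNA. Of 941862 distinct chimeras, 2630 lay in a window around a gene start with 30 further bases on their 5′ side and were joined to a miRNA of known sequence. The 6 members with a mature sequence had 36 of these, at 21 separate places. In 30 of the 36 (83.3%, 67.2 to 93.6), at 15 places, the 30 genome bases before the target held 10 or more bases in a row of the joined miRNA itself, on the same strand. These were 9 of 9 for miR-3470b (2 places), 7 of 7 for miR-1195 (4 places), 5 of 5 for miR-3473b (3 places), 4 of 4 for miR-7667-5p (1 place) and 5 of 11 for miR-706 (11 places), and miR-6380 had no target in the windows. Placed by that run, the 3′ end of the miRNA fell between 4 bases inside the target and 1 base before it.

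Among the 9 abundant miRNAs no such run was seen, but it was not particular to the members. None of the 1071 distinct chimeras of the 9 abundant miRNAs in the windows had such a run (interval up to 0.344%). Of the 2591 chimeras of all miRNAs other than the members there, those 9 included, 153 had one (5.91%, 5.03 to 6.88). A few miRNAs had it often, with 38 of 58 chimeras of miR-20a-5p, 17 of 45 of miR-125a-5p and 10 of 10 of miR-7067-5p. Others had it rarely, such as miR-19b-3p with 1 of 38 and miR-26a-5p with 1 of 20. The share for all miRNAs other than the members was 13.1% in the set 1 DKO pool and 23.9% in the set 1 control pool. It was 3.64, 3.12 and 4.05% in the set 2 DKO, induced and uninduced control pools. The target parts of the members did not hold the complement of the seed. It was found exactly in 0 of 36 chimeras of the members (interval up to 9.74%), against 327 of 1071 (30.5%, 27.8 to 33.4) for the 9 abundant miRNAs. Of those 327, 305 belonged to miR-31-5p (60.5% of its 504 chimeras), whereas miR-21a-5p had 0 of 123 and miR-24-3p 11 of 69, so the difference rests on miR-31-5p.

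The sequences below give, for 5 members, the 30 genome bases before a target followed by the target itself, on the strand of the target. The run shared with the miRNA is in capitals, and each place lies wholly before the gene's start. They are chr12:83525866-83525917 (plus strand, by Dcaf4) for miR-706, chr8:111741481-111741532 (minus, by Gm51589) for miR-3470b, chr2:132143458-132143533 (minus, by Gm14051) for miR-1195, chr2:132698818-132698879 (plus, by Gm38455) for miR-3473b and chr12:70693758-70693809 (minus, by Gm32322) for miR-7667-5p.
miR-706 place: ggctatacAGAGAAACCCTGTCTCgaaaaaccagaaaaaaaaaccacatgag
miR-3470b place: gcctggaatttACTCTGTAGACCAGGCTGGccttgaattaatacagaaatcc
miR-1195 place: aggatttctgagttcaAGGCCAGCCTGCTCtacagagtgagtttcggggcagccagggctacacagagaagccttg
miR-3473b place: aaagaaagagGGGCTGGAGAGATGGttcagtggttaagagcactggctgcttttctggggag
miR-7667-5p place: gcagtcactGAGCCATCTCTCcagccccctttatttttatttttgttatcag

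At the miR-3470b place, 19 of the miRNA's 21 bases end exactly where the target of 22 bases begins, and 6 reads of miR-3470b started there (3 in the set 1 DKO pool, 1 in the set 1 control pool and 2 in the induced pool). The miR-3473b place had 5 reads (3 in the set 2 DKO pool and 2 in the induced pool), and the other 3 places had 1 read each. The run was found in both sets: in 10 of 14 chimeras of the set 1 DKO pool and 10 of 11 of the set 1 control pool, and in 4 of 5, 5 of 5 and 1 of 1 of the set 2 DKO, induced and uninduced control pools. For miR-5099, 2 chimeras lay in a window, by Gm42092 on chromosome 11 with the target beginning at base 104073119 on the minus strand. The last 26 bases of its hairpin, in capitals above, matched there without a break, 17 before the target and 9 inside it. The windows cover a small part of the genome, and the bases before the chromosome 17 place of miR-5099 were not analysed here. The files give the position of the target alone, so a ligated miRNA and target, and a single unbroken RNA, cannot be told apart from it.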

How the data were processed

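Values used are of the unit class other, namely positions: per the file headers, an entry of a deposited file is 1 chimeric read with its target's start, end and strand, a barcode of 4 bases and the name of a miRNA. Per the submitters' processing notes the authors used cutadapt, Novoalign, bedtools and mm10, and versions are not given in the sources used here. Members were matched by name after removal of spaces. The members, lists and naming rules were chosen with earlier results of these data known. Genes named are those 20 whose share of member chimeras, averaged over the 5 pools, was highest, and the 3 leading genes of each member, of which 1 is not reported here. Regions named are the 5 with most members, then most chimeras. Other miRNAs are named from a comparison list, for a run of at least 12 bases shared with a member, or, after their values were seen, for the edge of the choice, the miR-5099 place and the runs before targets.

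Shares have exact Clopper-Pearson intervals and ratios conditional exact intervals (python 3.11.15, scipy 1.17.1, pandas 2.3.3, numpy 2.4.6), for counting error only, since reads are not independent molecules. A miRNA was counted as changed at a ratio of at least 1.5, or its inverse, and at least 20 reads over the pools compared. Targets were assigned to RefSeq genes (GRCm38.p6, the build of mm10) by their midpoint over whole gene spans, with strand known for 27025 of 49980 genes. Gene records without a listed position were left out, and targets in them count as outside genes. Coordinates count from 1. The interval, overlap and gene assignment steps were tested on simulated data. Alternatives were distinct combinations, other read sets and totals, other folds and minimums, other rules for position, gene and overlap, and, added after the data were seen, leaving out miR-5099 and other run lengths.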

Additional observations from a re-analysis of the deposited data

Results flagged for a closer look

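For 6 of 8 members the DKO over control ratio of shares lay on opposite sides of 1 in the 2 sets, with counting intervals that excluded 1 in both. It was 0.929 in set 1 and 1.55 in set 2 for miR-706, 0.533 and 1.18 for miR-3470a, 0.547 and 1.29 for miR-3470b, 0.564 and 1.36 for miR-1195, 0.536 and 1.16 for miR-3473b, and 0.447 and 1.98 for miR-5099. Each group is 1 pool, so the difference between sets was not tested, and the controls of the sets are different cells. Both controls are also the pools on which the members were chosen, which by itself favours a ratio below 1 in set 1 and above 1 in set 2. Among all 297 miRNAs with enough reads in both comparisons, 18 (6.06%) lay lower in set 1 and higher in set 2 by the same rule, and 34 (11.4%) the other way. For 2 of the 6 the pattern ended under an alternative: miR-706 had 1.00 in set 1 without reads shared within the lane, and miR-5099, with distinct combinations, had 1.40 in set 1 and 1.46 in set 2.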

How the results depend on the processing

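No paired analysis was possible because the files pool the libraries of a group and name none, and for the same reason no library could be left out in turn. The 8 members' combined ratio between pools kept its direction under each alternative run. In set 1 DKO over control it was 0.654 with distinct combinations counted once and 0.522 with members and miR-709 left out of the total. In set 2 DKO over uninduced control it was 1.23 with distinct combinations and 1.26 without miR-5099 (chosen after seeing the data, as are the other values without it), and induced over uninduced control it was 1.13 without miR-5099. Set 1 over set 2 control was 12.02 with distinct combinations, 11.6 without reads shared within a lane, 16.3 with the other total and 12.2 without miR-5099. At a fold of 2, 172 of 562 miRNAs (30.6%) were lower in set 1 DKO. In set 2, 44 of 371 (11.9%) were higher in DKO and 16 of 421 (3.80%) in induced cells. Of the 8 members, 2, 0 and 0 were among them in place of 7, 2 and 0. With at least 50 reads the counts were 82 of 253 (32.4%), 56 of 260 (21.5%) and 12 of 280 (4.29%), with 7, 2 and 0 members. Then 122 of 312 miRNAs (39.1%) were higher in set 1 than set 2 control, with all 8 members among them, as their choice required. With distinct combinations 6 members were past the fold in set 1 DKO and 0 in set 2 DKO. By 5′ end alone, reads per place were 223 in set 1 control and 97.6 in uninduced control for miR-5099, and 1.95 and 1.34 for the 7 other members. Targets of those 7 outside genes on the target's own strand were 30.1% in set 1 control and 31.6% in uninduced control. This setting leaves out genes of unknown strand and also counts targets that are only antisense to a gene as outside. With every read counted, 8.30% of the set 1 control reads of those 7 lay outside genes. An overlap of 10 bases gave 2.40% in set 1 control. A run of 12 bases before the target, chosen after seeing the data, gave 58.3%. Of the ratios of single members under alternatives, 80 moved by less than their counting interval, 30 moved further and 2 crossed 1, namely set 1 DKO over control for miR-706 without reads shared within the lane (1.00) and for miR-5099 with distinct combinations (1.40), and the cause was not tested.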

Other observations

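Target parts of the members were of ordinary length. Their median was 39 bases in the set 1 DKO pool and 38 in the set 1 control pool, against 40 and 37 for all other miRNAs there. In the set 2 DKO, induced and uninduced control pools it was 36, 37 and 35 bases, against 39, 39 and 37 for all other miRNAs. The medians of miR-706, miR-3473b, miR-7667-5p and miR-6380 were shorter than that of all other miRNAs in each pool. In the set 2 DKO pool they were 32, 31, 31 and 28 bases. Those of miR-5099 were longer in each pool, from 39 bases (uninduced control) to 53.5 (set 1 DKO). The members' targets did not lie at their own genes: 1 read of miR-706 lay within 500 bases of Mir706, and 0 reads of each other member lay within that distance of its gene.

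Most places were met once. Of the 26996 regions of overlapping member targets, 17223 (63.8%) held 1 distinct chimera, and 289 (1.07%) had chimeras in all 5 pools. The most read position of miR-3473b, outside genes at chr1:27709955-27709989 (minus strand), had 4 reads in the set 1 DKO pool and 18 in the set 1 control pool, and 8, 21 and 13 in the set 2 DKO, induced and uninduced control pools. That of miR-7667-5p, in Ssh2 at chr11:77251139-77251171 (plus), had 6 and 48 reads in the set 1 pools and 2, 7 and 9 in the set 2 pools in the same order.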
